A study of Mus musculus with 2 samples.

Results

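The 10 brain patterning homeobox genes Emx1, Emx2, Otx1, Otx2, En1, En2, Gbx1, Gbx2, Vax1 and Vax2 form 5 pairs of paralogs, and they were taken by their gene symbols from the authors' table of H3K27me3 peaks and the genes within 5 kb of them. A gene is called marked here when at least 1 peak was joined to it. All 10 genes were marked, whereas 4535 of 21900 protein-coding genes (20.7%) had a peak within 5 kb. The 10 genes carried 23 of the 19359 peaks, and no peak was shared between members.

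Rib cartilage of wild-type newborn CD1 mice was digested with collagenase, the released chondrocytes were cultured overnight, and their chromatin was analysed by ChIP-seq for trimethylation of histone H3 at lysine 27 (H3K27me3). After filtering, the single precipitated library held 17237574 tags, and the single input library, that is, chromatin sequenced without precipitation, held 17004082. The libraries were identified by their titles, because their antibody tags are the other way round: the input is tagged H3K27me3 and the precipitated DNA is tagged input. Neither library was replicated, which leaves no sample spread and no test, and the intervals below cover the counting of fragments only. None of the 12 chondrocyte marker genes examined, among them Col2a1, Acan and Sox9, had a peak within 5 kb. Of the markers of other cell types, 5 of 6 neuronal genes, 1 of 2 blood genes (Ptprc) and 1 of 2 muscle genes (Myod1) were marked. The only peaks of Ptprc (0.947 kb, mean q-value 0.0890) and of the neuronal gene Snap25 (1.11 kb, 0.0970) were narrow and weak, and without peaks of a q-value over 0.05 the neuronal count was 4 of 6 and the blood count 0 of 2.

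H3K27me3 is deposited by Polycomb repressive complex 2 (PRC2) and is a mark of silenced chromatin. In cells that do not use them, genes for developmental transcription factors typically carry it in broad domains over CpG-rich DNA. The members encode DNA-binding homeodomain proteins that divide the embryonic brain into regions. Emx1 and Emx2 act in the dorsal telencephalon, the origin of the cerebral cortex. Otx1 and Otx2 act in the forebrain and midbrain, and Gbx2 acts in the anterior hindbrain, where the border of Otx2 and Gbx2 positions the organizer between midbrain and hindbrain. En1 and En2 are expressed across this border, and En1 also acts in the ventral limb ectoderm. Vax1 and Vax2 act in the ventral forebrain, the optic stalk and the ventral retina. Cartilage of the rib is not a site where any of these brain territories forms.

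The promoter windows of 4 members are shown because they span the range from a start wholly under a wide peak to a start left open between peaks, and from many to few CpG dinucleotides. Each window runs 5′ to 3′ from 250 bases before to 50 bases after the RefSeq start (GRCm38.p6), with every CpG in capitals. The windows lie at chr6:85187681-85187980 on the plus strand (Emx1), chr19:59458440-59458739 on the plus strand (Emx2), chr14:48667595-48667894 on the minus strand (Otx2) and chr1:120602237-120602536 on the plus strand (En1).
Emx1: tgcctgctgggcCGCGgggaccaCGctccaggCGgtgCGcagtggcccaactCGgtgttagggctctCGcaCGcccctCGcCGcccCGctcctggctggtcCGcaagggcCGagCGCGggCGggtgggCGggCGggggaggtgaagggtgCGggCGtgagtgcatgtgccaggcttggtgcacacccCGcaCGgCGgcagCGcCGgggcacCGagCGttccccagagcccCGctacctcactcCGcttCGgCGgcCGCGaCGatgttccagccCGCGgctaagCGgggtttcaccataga
Emx2: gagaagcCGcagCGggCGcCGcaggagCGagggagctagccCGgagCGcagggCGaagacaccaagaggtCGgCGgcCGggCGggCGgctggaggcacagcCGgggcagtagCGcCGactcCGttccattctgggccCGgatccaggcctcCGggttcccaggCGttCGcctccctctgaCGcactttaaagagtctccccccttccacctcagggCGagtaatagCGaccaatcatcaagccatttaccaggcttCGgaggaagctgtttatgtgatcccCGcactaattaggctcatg
Otx2: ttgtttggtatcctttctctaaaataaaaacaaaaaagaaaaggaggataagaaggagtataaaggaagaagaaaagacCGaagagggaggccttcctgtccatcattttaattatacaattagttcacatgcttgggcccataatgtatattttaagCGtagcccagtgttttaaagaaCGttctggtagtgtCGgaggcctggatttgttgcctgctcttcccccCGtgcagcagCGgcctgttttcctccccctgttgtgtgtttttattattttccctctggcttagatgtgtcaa
En1: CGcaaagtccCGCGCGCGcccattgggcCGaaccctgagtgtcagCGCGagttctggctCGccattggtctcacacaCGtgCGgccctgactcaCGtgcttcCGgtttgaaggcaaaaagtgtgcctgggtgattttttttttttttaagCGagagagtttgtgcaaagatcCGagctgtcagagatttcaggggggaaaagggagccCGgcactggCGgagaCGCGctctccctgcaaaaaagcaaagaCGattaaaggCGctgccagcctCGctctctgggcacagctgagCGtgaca

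The Emx1 window held 37 CpG and was covered by a peak over all 300 bases. The Emx2 window held 26 CpG, and a peak covered only its first 37 bases. The En1 window held 23 CpG, with 230 bases under a narrow peak. The Otx2 window held 6 CpG and lay under a peak over all 300 bases, so the window poorest in CpG was as fully covered as the richest. It is 1 of 4 RefSeq windows of Otx2, the one nearest the Ensembl 5′ end, and the others held 8, 16 and 11 CpG and were covered over all 300 bases too. The windows of Gbx2 (27 CpG) and Vax1 (17 CpG) were also covered over all 300 bases. No promoter sequence was matched for Otx1, En2, Gbx1 and Vax2. Over 17492 protein-coding promoters, 1 per gene, the median was 13 CpG (quartiles 3.75 and 24), so 5 of the 6 matched members were above the median, and 3 of the 4 Otx2 windows were below it. The 3507 promoters of genes with a peak had a median of 14 CpG and the 13985 without a peak a median of 13. The letters TATAAA, searched on both strands, were in the printed Otx2 window alone among the 6 and in none of the other Otx2 windows, and in 13.3% of all promoters.

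For each gene the number of peaks, their summed length, the pileup and the position relative to the 5′ end of its Ensembl record are given next. The pileup counts ChIP fragments, averaged along a peak, and the fold enrichment sets it against the local input. Over all 19359 peaks the median width was 1.27 kb, the median pileup 11.04 and the median fold enrichment 3.16. Positions are signed along the gene, with negative values upstream of the 5′ end.

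The Emx genes differed in how their marked regions were divided. Emx1 (plus strand of chromosome 6, 85187439 to 85204462) carried 1 peak of 19.1 kb, from −6.41 to +12.6 kb, with a pileup of 12.87 (95% Poisson interval 12.0 to 13.8) and a fold enrichment of 3.58. This peak ran across the start and covered 74.3% of the gene. Emx2 (chromosome 19, 59458691 to 59465357, plus strand) had 2 peaks with a summed length of 33.6 kb and a mean pileup of 12.80 (12.2 to 13.5). One of them, of 15.1 kb, lay from −15.3 to −0.215 kb with a pileup of 12.66, and the other, of 18.5 kb, from +1.15 to +19.7 kb with a pileup of 12.92. The start of Emx2 fell in the gap of 1367 bp between them, and 82.7% of the gene was covered. Both peaks of Emx2 were also joined to Emx2os, a noncoding gene of the opposite strand, and ChIP signal cannot be assigned to 1 of the 2 strands.

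The Otx genes showed a fragmented and an unbroken pattern. Otx1 (chromosome 11, 21994765 to 22002897, minus strand) had 4 peaks of 0.709, 1.61, 7.46 and 8.66 kb, none of them as wide as 10 kb, with a summed length of 18.4 kb. Their pileups were 12.07, 10.88, 12.72 and 13.29 in this order, so the widest and most downstream peak, from +10.8 to +19.5 kb, was also the highest. Its 5′ end lay under the peak of 1.61 kb, which ended 89 bp further on, and a gap of 1229 bp followed. The RefSeq table places the start of Otx1 1246 bp downstream, inside that gap. Of these peaks, 3 were also joined to the neighbouring gene Ehbp1. Otx2 (minus strand of chromosome 14, 48657680 to 48667644) carried 1 peak of 30.9 kb, from −5.82 to +25.1 kb, with a pileup of 13.39 (12.7 to 14.1) and a fold enrichment of 3.71. This peak covered the whole of Otx2, whereas 84.9% of Otx1 was covered.

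Both En genes were flanked by a wide peak on either side of the start. En1 (plus strand of chromosome 1, 120602419 to 120609296) carried a peak of 12.0 kb from −13.6 to −1.59 kb with a pileup of 12.75, and a peak of 23.7 kb from +1.40 kb onwards with a pileup of 12.26. Between them lay a peak of 294 bp over the start itself, with a pileup of 9.97 (4.77 to 18.4) and a fold enrichment of 2.99. The last was the smallest width in the peak list and the weakest of the 23 member peaks, with a mean q-value of 0.0895. En2 (plus strand of chromosome 5, 28165697 to 28173612) carried a peak of 15.7 kb from −16.1 to −0.445 kb with a pileup of 12.25, and a peak of 15.4 kb from +2.13 to +17.5 kb with a pileup of 13.41. Its start lay in the gap of 2571 bp between them, the widest gap at a member start. The summed lengths were 35.9 kb for En1 and 31.1 kb for En2, and 82.3% and 73.1% of the genes were covered.

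The Gbx genes differed most in the summed length of joined peaks, although the Otx genes differed more, by −21.5 kb against −14.7 kb, when only peaks of a q-value up to 0.01 or of a fold enrichment from 3.5 were kept. Gbx1 (chromosome 5, 24502758 to 24527276, minus strand) had 4 peaks of 1.82, 4.48, 7.29 and 2.09 kb, with pileups of 11.47, 13.56, 11.93 and 11.29. Their summed length of 15.7 kb was the smallest of the 10 genes, and 56.5% of the gene was covered, the lowest share. The 5′ end of Gbx1 fell in a gap of 1816 bp, and a peak of Gbx1 was also joined to its neighbour Asb10. Gbx2 (minus strand of chromosome 1, 89927963 to 89933290) carried a peak of 24.4 kb across its start, from −22.1 to +2.33 kb, with a pileup of 12.45, and a peak of 19.1 kb from +3.52 to +22.7 kb with a pileup of 13.74. The summed length was 43.6 kb and 77.6% of the gene was covered. Peaks of Gbx2 were also joined to Asb18 and to an unnamed gene record.

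The Vax genes had the largest summed lengths of joined peaks, although not the longest domains. Vax1 (minus strand of chromosome 19, 59166188 to 59171136) carried 1 peak of 46.5 kb, from −32.6 to +14.0 kb, with a pileup of 13.26 (12.7 to 13.8). It covered the whole gene and ranked 19 by width among all peaks. Vax2 (plus strand of chromosome 6, 83711265 to 83738304) carried a peak of 55.6 kb, from −35.8 to +19.8 kb, with a pileup of 14.01, which ranked 11 by width and was the highest pileup of the 23 peaks. A peak of 2.75 kb further into Vax2 had a pileup of 11.27, and a peak of 1.49 kb just past its 3′ end had a pileup of 10.96. The summed length of Vax2, 59.8 kb, was the largest of the 10 genes. Peaks of Vax2 were also joined to Cd207, Vax2os and Atp6v1b1, so part of its length lies over neighbouring genes.

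**Figure D1:**
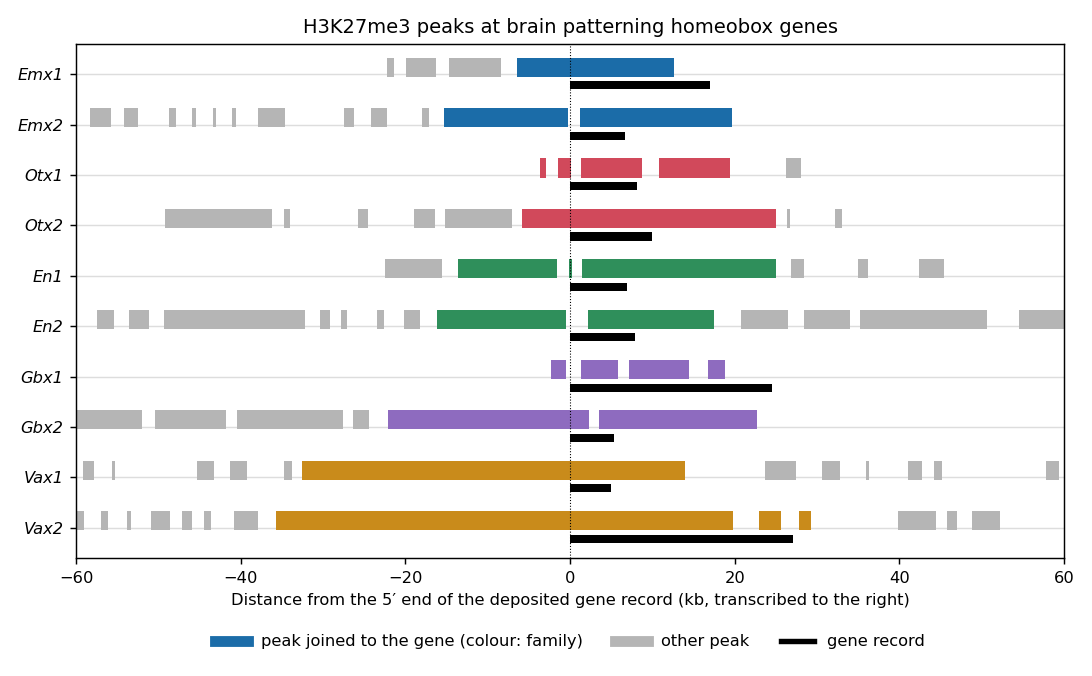
Peaks around each of the 10 genes, drawn to scale against the distance from the 5′ end of the gene record in kb, with transcription to the right; coloured bars are peaks joined to the gene, grey bars other peaks and black bars the gene record. Vax1, Otx2 and Emx1 show 1 unbroken bar across the start, whereas Otx1 and Gbx1 each show 4 shorter bars.

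Within the pairs, the summed length of joined peaks differed, whereas the pileup intervals overlapped. The longer gene exceeded the shorter 2.78 times in Gbx, 1.76 times in Emx, 1.67 times in Otx, 1.28 times in Vax and 1.16 times in En. The length of the gene numbered 1 minus that of the gene numbered 2 was −14.5 kb in Emx, −12.4 kb in Otx, −27.9 kb in Gbx and −13.3 kb in Vax, and +4.82 kb in En, the only pair with the longer gene numbered 1. The intervals of the mean pileup overlapped in all 5 pairs, which is not a test of the difference. Summed length has no such interval, and the direction of the Emx and En differences turned under some other settings.

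The summed length depends on which peaks lie within 5 kb of a gene record, and long records reach further. Counted instead in a fixed window of 25 kb on either side of the 5′ end, the peaks held between 15.7 kb (Gbx1) and 46.9 kb (Vax2). The pair ratios in this window were 2.81 for Gbx, 2.28 for Otx, 1.22 for Emx, 1.16 for Vax and 1.12 for En. Gbx and Otx therefore differed by more than 1.5 times by either measure, whereas Emx did so only with the peaks joined to the gene. The En pair turned to a longer En2 when the mean q-value of peaks was limited to 0.01, with a difference of −3.42 kb, and the Emx pair turned to a longer Emx1, by 0.558 kb, when only peaks overlapping the gene were counted.

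**Figure D2:**
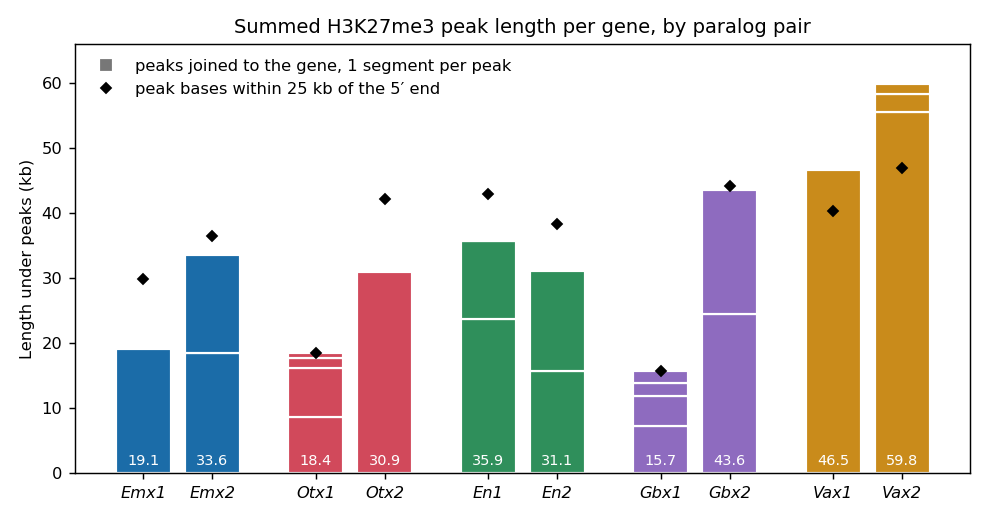
Summed peak length in kb for the 10 genes in pairs, with bars for the peaks joined to the gene (1 segment per peak, value printed in each bar) and diamonds for the peak bases within 25 kb of the 5′ end. The Gbx and Otx pairs are apart by both measures, and Otx1 and Gbx1 have the lowest diamonds.

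Wide peaks made up most of the marked length of these genes. Of the 23 member peaks, 12 (52.2%) were at least 10 kb wide, against 670 (3.46%) of all peaks, and these 12 held 88.5% of the 334.6 kb. At least 1 such peak was joined to 8 of the 10 genes, the exceptions being Otx1 and Gbx1, whereas 13.6% of the 4987 gene symbols with a peak had one. The median summed length of the members was 32.3 kb (15.7 to 59.8 kb), beside 3.80 kb over all 4987 symbols, although the median number of peaks per gene was 2 in both. The members' median was 19.1 kb with only peaks of a q-value up to 0.01, 17.2 kb with those of a fold enrichment from 3.5, 21.5 kb with those overlapping the gene and 21.4 kb with an overlap of 500 bp. Even the shortest, Gbx1, exceeded 86.7% of the symbols. Vax2 ranked 49, Vax1 98 and Gbx2 112 by summed length.

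Height set the members apart less than width. Even so, the median member pileup exceeded that of 90.8% of all peaks, and the median fold enrichment that of 89.1%. The 23 peaks had a median pileup of 12.66 (9.97 to 14.01) and a median fold enrichment of 3.48 (2.99 to 3.73), and the input level implied for them was 2.67 to 3.11 fragments, close to the genome-wide level of 2.67. The mean q-value was 0.05 or lower in 22 of the 23 peaks, and the share over all peaks at this cut is not given here. It was 0.01 or lower in 12 of the 23, beside 2134 of all 19359 peaks. Every member had at least 1 peak with a q-value of 0.01 or lower, beside 29.2% of all symbols.

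**Figure D3:**
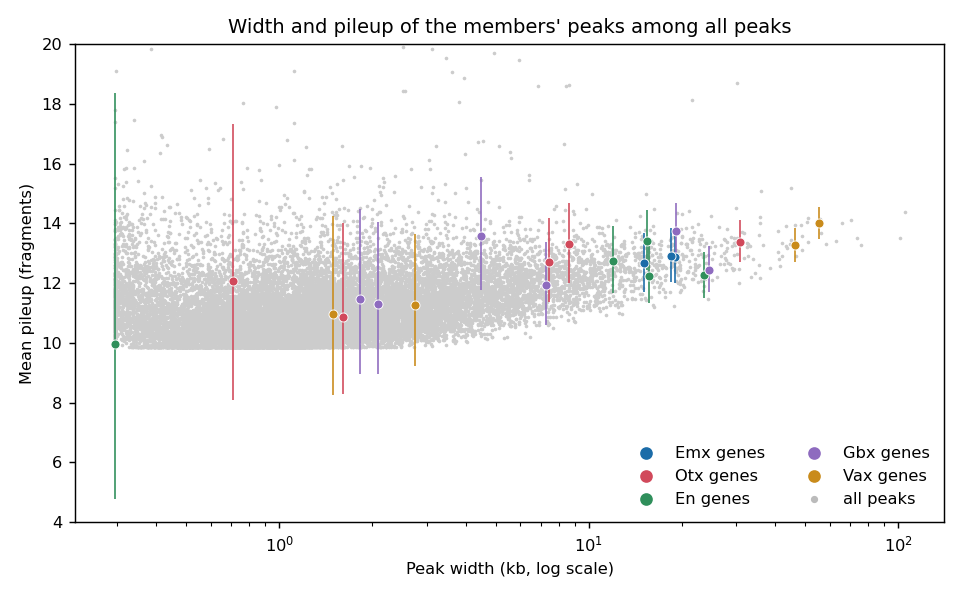
Pileup (mean ChIP fragments over the peak, linear axis) against peak width (kb, log axis) for all peaks in grey and the 23 member peaks in colour by family, with 95% Poisson intervals as bars. The 39 peaks with a pileup over 20 are not drawn, the member peaks of at least 10 kb lie between 12.25 and 14.01, and the narrow ones reach down to 9.97 in En1.

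The position of the start divided the members. The 5′ end lay under a peak in 7 genes, beside 22.5% of all symbols, and under a peak of at least 10 kb in 5 (Emx1, Otx2, Gbx2, Vax1 and Vax2), beside 7.76%. With only peaks of a q-value up to 0.01, or of a fold enrichment from 3.5, the number under a peak was 4. It was 6 with a q-value up to 0.05, and 5 with peaks that overlapped the gene by at least 500 bp. The shares over all symbols were computed with all peaks only. With all peaks, the 5′ end of the 3 genes not covered (Emx2, En2 and Gbx1) lay in a gap of up to 5 kb between peaks, beside 15.8%. With the starts of the RefSeq table the number under a peak was 6, because Otx1 moved into its gap. A gap within 2 kb of the 5′ end was present in 5 genes (Emx2, Otx1, En1, En2 and Gbx1), beside 25.1% of all symbols.

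Followed along the gene, 9 of the 10 members were covered 1 kb upstream of the 5′ end, 7 at the 5′ end, 5 from 0.25 to 1 kb downstream, 9 at 1.5 kb and all 10 at 4 kb. Over all symbols with a peak, the covered share was 30.3% at 1 kb upstream, 22.5% at the 5′ end, 21.9% at 0.25 kb and 31.6% at 1.5 kb downstream. The lower share just after the start was therefore found among marked genes in general and not only among these 10. Each family but Vax had at least 1 member with a gap near the start. In Emx, Otx and Gbx the paralog was covered without a break within 2 kb of its 5′ end, and in En neither was. For Gbx2 this holds only with the Ensembl record, because the RefSeq start lies 2114 bp downstream, close to the gap between its peaks from +2.33 to +3.52 kb. The peak caller linked stretches up to 1176 bp apart, so narrower gaps could not appear in the list. The promoters of genes whose 5′ end lay in a gap had a median of 19 CpG, and those with the 5′ end under a peak a median of 13. The part of CpG content in the gaps was not tested.

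**Figure D4:**
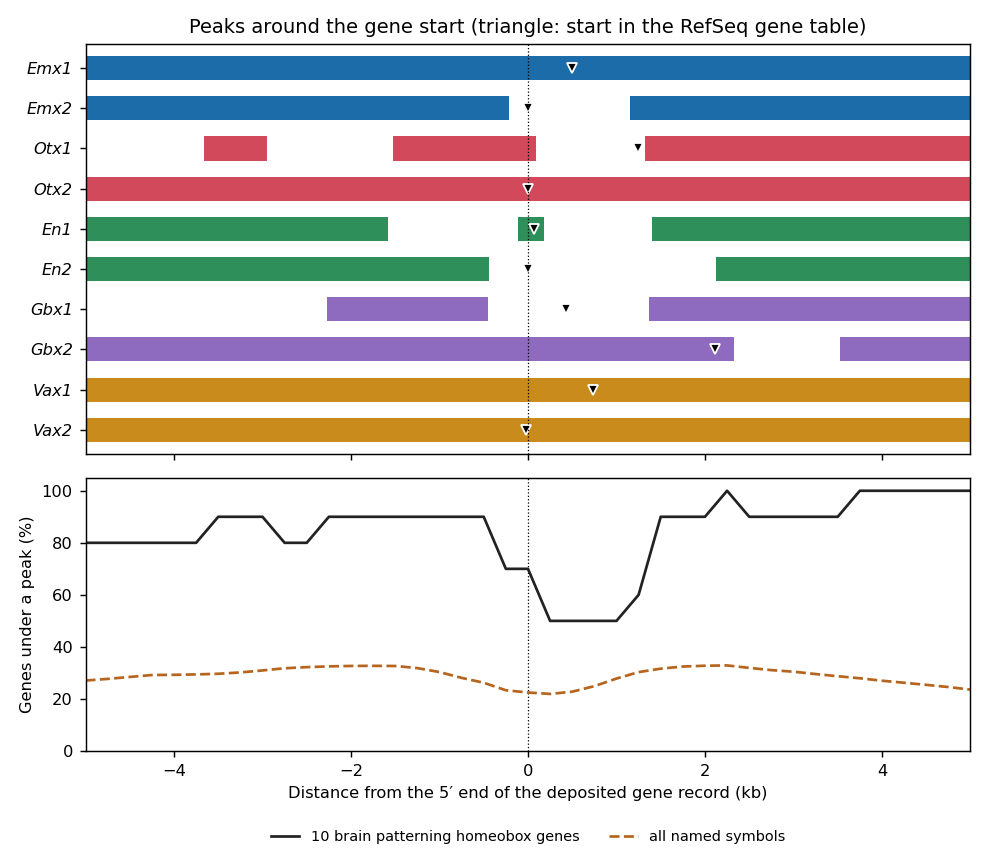
Upper panel, peaks (bars) within 5 kb of the 5′ end of each gene, with triangles for the start in the RefSeq table; lower panel, the percentage of genes under a peak at each distance, for the 10 members (solid) and all symbols with a peak (dashed). Emx2, En2 and Gbx1 are open at the 5′ end and Otx1 just after it, and both lines are lower just after the start than at 1.5 kb.

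Most marked regions went on beyond the peaks joined to the gene. When all peaks were joined across gaps of up to 5 kb, the domain around a member spanned from 21.1 kb (Gbx1) to 130.6 kb (En2). The En2 domain held 16 peaks from −63.8 to +66.8 kb and ended inside its neighbour Cnpy1. The Vax2 domain spanned 99.9 kb with 12 peaks and the Gbx2 domain 99.1 kb with 8. The domains of Gbx1 and Otx1 (23.1 kb), the genes with 4 narrower peaks, were the shortest.

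Other genes that pattern the brain were marked nearly as often as the members. Of 35 such genes, 31 had a peak, with a median summed length of 24.7 kb over the list, and the 5′ end lay under a peak in 24. The largest summed lengths were those of Pax2 (94.1 kb), which acts with the En genes at the midbrain-hindbrain border, of Pax3 (86.9 kb), a dorsal neural tube gene, and of Dmbx1 (73.5 kb), a midbrain homeobox gene. The smallest among marked genes were those of the hindbrain gene Egr2 (5.37 kb), the signal Fgf17 (5.78 kb) and Pax8 (10.6 kb). Hesx1, Tle4, Spry1 and Gli3 had no peak within 5 kb, although Tle4, a corepressor, had one at 5.77 kb. Spry1 is an inhibitor of receptor tyrosine kinase signalling, and Gli3 a mediator of hedgehog signalling.

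Nearest to the members in summed length, among the 31, were Sp8 to Emx1 (18.9 kb), Nr2f2 to Emx2, Otx2 and En2 (30.5 kb), Barhl1 to Otx1 (18.5 kb) and Nkx2-1 to En1 (38.8 kb). They were Barhl2 to Gbx2 (44.6 kb), Lmx1b to Vax1 (47.8 kb) and Lmx1a to Vax2 (58.5 kb). The likeness is in this 1 measure alone.

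Homeobox genes of other roles were not marked alike. Of 11 homeobox genes of limb and skeleton 9 were marked, with a median of 20.8 kb over the list and Barx1 (31.9 kb) the longest, and the mesenchymal genes Prrx1 and Alx1 had no peak within 5 kb. The 9 include Prrx2, named after its values were seen, whose only peak was 0.478 kb wide with a mean q-value of 0.0988. All 6 Dlx genes were marked, with a median of 17.6 kb and Dlx6 (28.1 kb) the longest. Of the TALE homeobox genes, many of whose products act as cofactors of other homeodomain proteins, Meis1, Meis2, Meis3, Pknox1, Pknox2, Tgif1 and Tgif2 had no peak within 5 kb. These libraries hold no RNA, and expression was not analysed here.

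**Figure D5:**
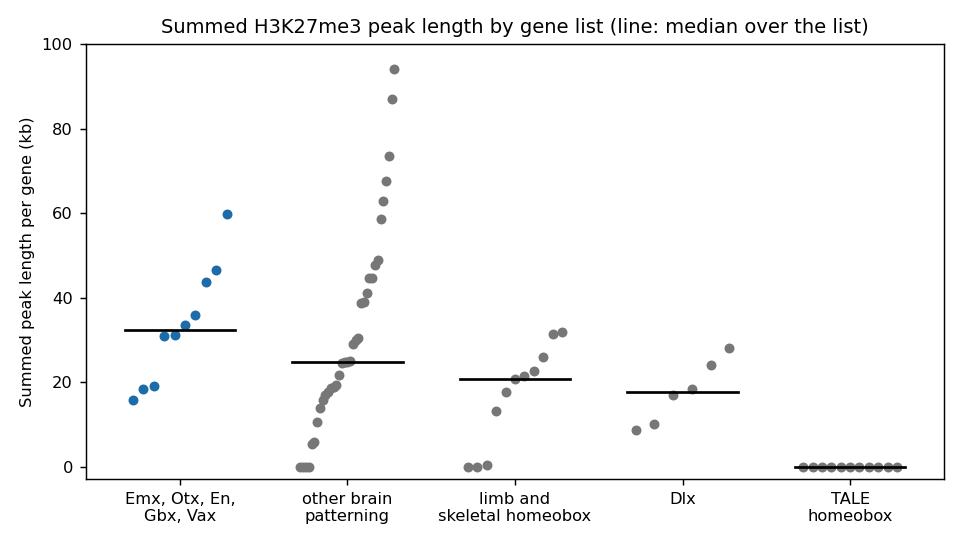
Summed peak length in kb of each gene of 5 lists (points; genes with no peak within 5 kb at 0) with the median of each list as a line. The 10 members lie between 15.7 and 59.8 kb, within the range of the other brain patterning genes, and the TALE genes lie at 0.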

How the data were processed

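The authors trimmed reads (CASAVA 1.8.4 is named in the submitters' processing notes), aligned them with Bowtie2 to mm10 and called broad peaks with MACS 2.1.0.20140616, with the ChIP library against the input. Per the file headers, the fragment length was 294 bp, the q-value cutoff 0.05, and the libraries held 17574613 and 17369199 tags before filtering. The authors deposited, per peak, a pileup (a coverage signal), a fold enrichment over input (a ratio with 1 added to both terms) and p-values and q-values as mean −log10 values. They also deposited a table of peaks and Ensembl gene records within 5 kb, and the tool that made it was not given in the sources used here.

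Peaks were counted by name, joined symbols were split, and all 19359 peaks had equal values in both tables. The RefSeq gene table (GRCm38.p6) held 98.8% of the 4987 symbols. Summed length is the total width of the joined peaks. The fragments behind a pileup were taken as pileup times width over 294 bp, with exact Poisson intervals of 95%. Scripts used Python 3.11.15, pandas 2.3.3 and scipy 1.17.1. Only the placing of positions among peaks and the joining of peaks were tested on simulated data. Named genes were the members, genes sharing their peaks or lying next to them, and the ends and the unmarked genes of the other lists. In the limb and Dlx lists the longest gene and the unmarked ones are named, and Prrx2 was added after its values were seen. The members and lists were chosen with earlier results of these data known. No test was possible with 1 library per group, and the precision is limited by the depth and the lack of replicates. Alternatives were stricter thresholds and other rules for joining peaks to genes, of which the fixed window, the gap settings and the linked members were chosen after seeing the data. Homeodomain sequences were not analysed here, and a few genes of the other lists are not reported here.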

Additional observations from a re-analysis of the deposited data

How the results depend on the processing

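Of 76 values recomputed over 10 results, 51 moved by less than the limit of 1.5 times, 20 moved further and 5 turned in direction. Shifts below the limit include that from 7 to 5 members with the 5′ end under a peak, at an overlap of 500 bp. All 10 members had a peak under every alternative run, and the Otx, Gbx and Vax differences kept their direction in all of them. The Emx difference turned to +3.96 kb with peaks of a fold enrichment of at least 3.5, and to +0.558 kb when peaks had to overlap the gene, at any length or by 500 bp. It was −5.43 kb with all peaks within 20 kb and −6.60 kb in the 25 kb window. The En difference turned to −3.42 kb at a q-value of at most 0.01 and at a fold enrichment of at least 3.5. It was 8.54 kb for peaks overlapping the gene and 8.25 kb for an overlap of 500 bp.

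The Otx difference grew to −21.5 kb at the strict q-value or fold enrichment, −21.8 kb for peaks overlapping the gene, −23.4 kb for an overlap of 500 bp, −21.7 kb within 20 kb and −23.7 kb in the window. The Gbx difference was −14.7 kb at the strict q-value or fold enrichment, and the Vax difference −6.53 kb in the window. The median summed length was 19.1 kb at the strict q-value, 17.2 kb at the strict fold enrichment, 21.5 kb for peaks overlapping the gene and 21.4 kb for an overlap of 500 bp. With either strict threshold 4 members had the 5′ end under a peak. The number with the 5′ end in a gap was 3 for gaps of up to 3 kb, 4 with q-values of at most 0.05 and 4 with RefSeq starts. Joining peaks only within 1 kb left 23 domains, since the caller leaves no gap that short. Apart from such losses of peaks by construction, the cause of these shifts was not tested.

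No paired analysis was possible because there was 1 ChIP and 1 input library. A single library cannot show whether a gap or a difference between paralogs would recur, and the lowest pileup listed, 9.86, hides weaker marks. Fragment length also limits the narrow peak of En1, which is 1 fragment wide.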

Other observations

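The chromosomal arrangement of the members joins families to each other. Vax1 and Emx2 lie 0.288 Mb apart on chromosome 19, and Vax2 and Emx1 lie 1.48 Mb apart on chromosome 6. Gbx1 and En2 lie 3.64 Mb apart on chromosome 5, and Gbx2 and En1 lie 30.7 Mb apart on chromosome 1. Between the peaks of Vax1 and Emx2 there were 22 other peaks, which covered 13.9% of 239.7 kb, with 3 protein-coding genes inside. Between Vax2 and Emx1 peaks covered 3.10%, between Gbx1 and En2 1.43%, and between Gbx2 and En1 0.784%, beside 2.51% of the effective genome size over all peaks.

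Neighbouring genes were covered to very different extents. Next to En2, 54.7% of Cnpy1 lay under peaks, and next to Gbx2, 73.8% of Asb18. Near Vax2, peaks covered 100% of Vax2os, 68.1% of Cd207, a Langerhans cell gene, 59.6% of Clec4f and 37.0% of Atp6v1b1. The noncoding neighbours Emx2os and Otx2os1 were covered over 57.0% and 33.1%. In contrast, peaks covered 0% of Asb10 and Agap3 near Gbx1, of Sfxn5 near Emx1 and of Insig1 near En2. Whether the neighbours hold marks of their own or lie in domains of the members was not tested.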
